A study of Homo sapiens with 4 samples.

Results

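The genes that encode chromatin remodelling and Polycomb complexes were examined in HCT116, an established human colorectal carcinoma line, after exposure to HJ-4, a piperine derivative. They were chosen by name as 47 of the 20263 genes in the table, in 6 classes: SWI/SNF (19 genes), ISWI (5), CHD and NuRD (13), INO80 and SRCAP (5), Polycomb repressive complex 2 (PRC2, 3) and KMT2 methyltransferases (2). Cells labelled wild type received 32 µM HJ-4 for 24 h or 0.1% DMSO, the vehicle, for 24 h. That dose is the one in the labels and in the study's methods, while a figure legend of the study gives a lower one, so the dose behind every comparison here is not settled. RNA of each condition is represented by 2 libraries here, although the study's methods describe triplicates. The labels do not state whether replicate libraries stem from separate cultures, and the p-values below measure a spread between libraries that may be technical.

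Chromatin remodellers use ATP to slide, evict or exchange nucleosomes and so set which stretches of DNA transcription factors and polymerase can reach. SWI/SNF complexes open regulatory DNA, ISWI complexes space nucleosomes, and NuRD joins a CHD helicase to histone deacetylases. INO80 and SRCAP remodel nucleosomes in relation to the variant histone H2A.Z, which SRCAP deposits. Polycomb repressive complex 2 places a repressive methyl mark on histone tails, while KMT2 enzymes place an activating mark that opposes it. SWI/SNF subunits, of which ARID1A is the best known, are often mutated in carcinomas, and EZH2 is often abundant in dividing tumour cells.

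The 4 libraries held 29769568 to 34359889 counts, and 14044 genes passed the filter on low counts. Counts of a member lay between 527 and 12982 in a library, and 47 of 47 members were tested. EPCAM, an epithelial adhesion gene, stood at 251 and 244 CPM (counts scaled to the size of each library) in HJ-4 libraries, against 268 and 247 CPM in DMSO libraries. Of the other 5 epithelial markers, KRT8, KRT19 and CDX2 had log2 fold changes of 0.017, -0.025 and -0.16, KRT18 had 0.15, and CDH1, or E-cadherin, averaged 105 CPM with HJ-4 and 78.4 CPM with DMSO (log2 fold change 0.41, unadjusted p 0.0086, adjusted p 0.20 in edgeR). Of 7 markers of other cell types, PTPRC, CD3E, PECAM1, COL3A1 and ALB had at most 7 counts in any library. VWF, an endothelial gene, had 47 and 40 counts with HJ-4, against 31 and 21 counts with DMSO, and COL1A1, a stromal collagen gene, had 58.2 and 60.8 CPM with HJ-4, against 62.6 and 59.4 CPM with DMSO. The part of these markers in the results below was not tested. Fewer cells of a kind and less RNA per cell cannot be told apart in such bulk samples.

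Over all 14044 genes, edgeR's quasi-likelihood test called 7 at an adjusted p under 0.05 (0.0498%), and 0 of the 47 members were among them. The lowest adjusted p of a member was 0.12, for PBRM1. At an unadjusted p under 0.05 stood 6 members (12.8%), 1 higher and 5 lower with HJ-4, against 15.9% of all genes tested, of which 7.93% were higher and 7.93% lower. The members' share was near that of the genes at large, and the difference between the shares was not tested. limma-voom called 0 members too, whereas DESeq2 called 4 (8.51%), PBRM1 higher and KMT2A, SRCAP and EZH2 lower, against 4.09% of all genes.

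As a group the members differed little between conditions. Their median log2 fold change, HJ-4 over DMSO, was -0.032, beside 0.004 over all genes, with 17 positive and 30 negative, against 7122 positive and 6922 negative over all genes. The median size of the log2 fold change, whatever its sign, was 0.10 for the members and 0.17 for all genes. These medians are not matched for count level. Every member had at least 527 counts in a library, while the genes tested include far lower counts, such as VWF at 21 in DMSO replicate 2. The 95% interval of the fold change lay within 0.5 on either side of zero on the log2 scale for 33 members. The share of all genes with such an interval was not computed. The HJ-4 libraries were both above the DMSO pair for 6 members and both below it for 14, while 27 overlapped. Of all genes tested, 25.2% lay above and 25.6% below.

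**Figure D1:**
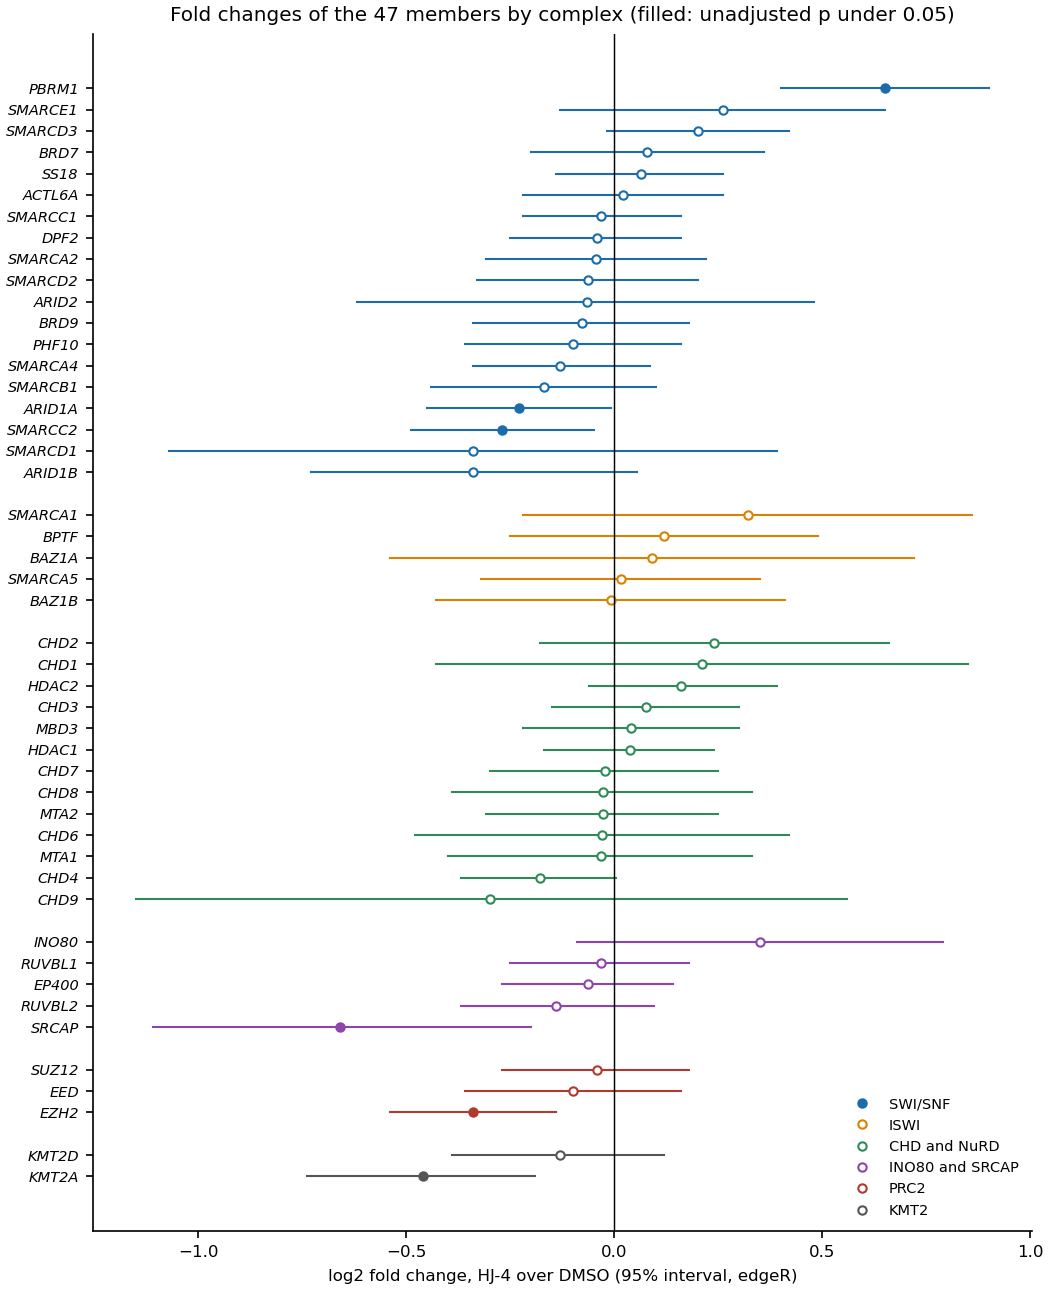
Log2 fold changes of the 47 members, HJ-4 over DMSO (x axis), by complex, with 95% intervals from edgeR as lines. Filled points are the 6 members at an unadjusted p under 0.05, and PBRM1 at 0.65 and SRCAP at -0.66 are the outermost points.

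Levels of different genes were compared in TPM, in which counts are divided by the length of the canonical transcript and then scaled to the library. The most abundant members were HDAC1, the deacetylase of NuRD, at 242 TPM with HJ-4 and 237 TPM with DMSO, and RUVBL2, a helicase-like ATPase shared by INO80, SRCAP and TIP60 complexes, at 203 TPM with HJ-4 and 224 TPM with DMSO. SMARCD2, an accessory SWI/SNF subunit, followed at 156 TPM with HJ-4 and 163 TPM with DMSO, and CHD4, the NuRD helicase, at 113 TPM with HJ-4 and 129 TPM with DMSO. At the low end stood CHD9 at 4.12 TPM with HJ-4 and 5.1 TPM with DMSO, CHD7 at 5.76 TPM with HJ-4 and 5.87 TPM with DMSO, and ARID2 at 6.25 TPM with HJ-4 and 6.57 TPM with DMSO. HCT116 cells thus carried transcripts of each of the 6 classes in both conditions.

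**Figure D2:**
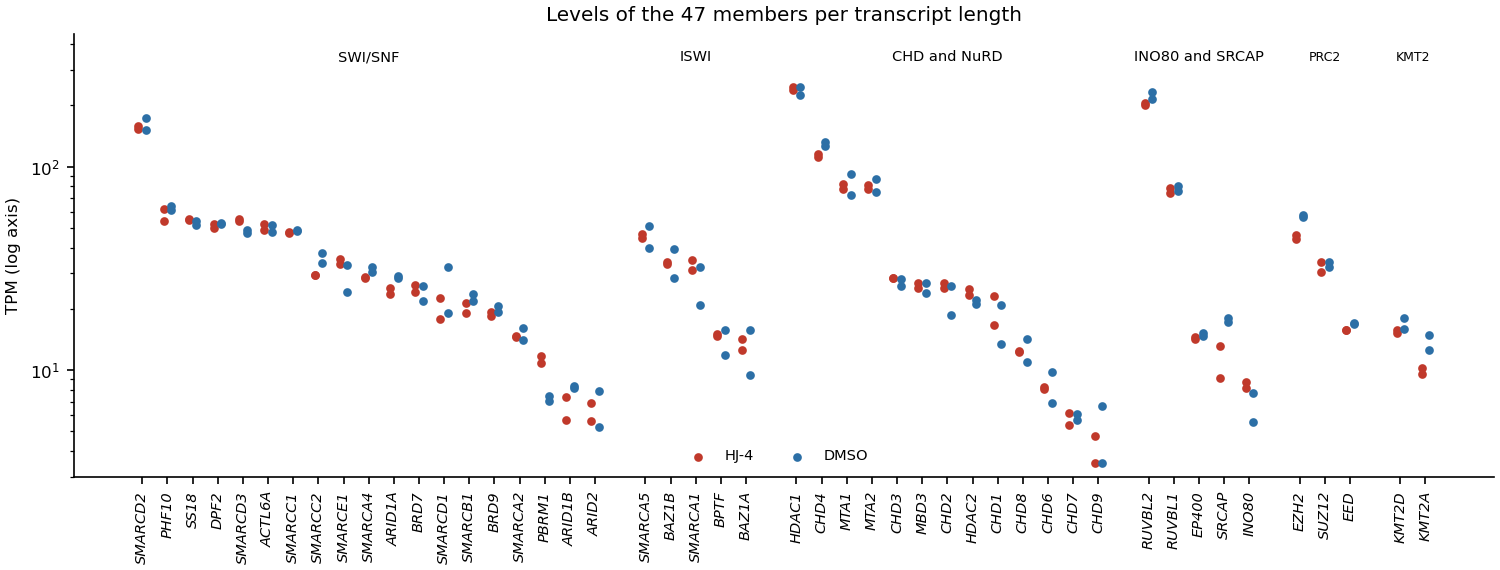
TPM of the 47 members on a log axis, by complex and in order of level, with a point per library and HJ-4 to the left of DMSO. HDAC1, RUVBL2, SMARCD2 and CHD4 stood highest, and all but 8 members differed by less than 0.3 between conditions in log2 fold change.

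PBRM1 encodes the polybromo subunit that defines the PBAF form of SWI/SNF and reads acetylated histones. The gene lies on chromosome 3 (52545352 to 52685917, minus strand, GRCh38). Its level was 47.2 and 44.3 CPM in HJ-4 libraries, against 28.5 and 29.9 CPM in DMSO libraries. The conditions were well separated, and replicates of a condition nearly coincided. The log2 fold change was 0.65 (SE 0.10, 95% interval 0.40 to 0.90, a ratio of 1.57), with an unadjusted p of 0.0011 and an adjusted p of 0.12 in edgeR. DESeq2 gave an adjusted p of 7.5e-05, and over the 13 alternatives tried the adjusted p ran between 7.5e-05 and 0.56. PBRM1 shares 1.51% of its exon bases with UQCC5 on the other strand. The log2 fold change of PBRM1 stayed between 0.59 and 0.68 when any library was left out.

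ARID2, BRD7 and PHF10, the other members particular to PBAF, each had an unadjusted p above 0.05. ARID2, the DNA-binding partner of PBRM1 in PBAF, had 29.6 and 24.5 CPM with HJ-4, against 23 and 33.8 CPM with DMSO, so that its groups overlapped. BRD7 and PHF10, bromodomain and PHD finger subunits of PBAF, had log2 fold changes of 0.079 and -0.10, both with overlapping groups. Within a library, the log2 TPM ratio of PBRM1 to ARID2 was 0.78 and 0.96 with HJ-4, against 0.42 and -0.071 with DMSO, a difference of 0.70. In TPM, PBRM1 differed little between DMSO libraries (7.04 and 7.48), unlike ARID2 (5.28 and 7.86).

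Over the 19 SWI/SNF genes, 6 log2 fold changes were positive and 13 negative, with a median of -0.063. edgeR called 0 of them, and 3 (15.8%) had an unadjusted p under 0.05 (1 higher and 2 lower), near the 15.9% of all genes. The groups of 8 overlapped, as did those of 6904 of the 14044 genes tested. ARID1A, the large DNA-binding subunit of the BAF form, lies on chromosome 1 (26693236 to 26782104, plus strand). It had 102 and 110 CPM in HJ-4 libraries, against 127 and 122 CPM in DMSO libraries. The groups did not overlap, with a log2 fold change of -0.23 (SE 0.086, unadjusted p 0.045, adjusted p 0.31 in edgeR). ARID1B, which takes the place of ARID1A in some complexes, had 29.3 and 38.5 CPM with HJ-4, against 42.7 and 43.1 CPM with DMSO. HJ-4 replicate 1 carried most of that difference, since the log2 fold change of ARID1B was -0.34 with all libraries, -0.17 without HJ-4 replicate 1 and -0.56 without HJ-4 replicate 2. ARID1A remained the more abundant of the pair in every library, at 77.2% to 80.7% of their summed TPM.

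SMARCC2, a scaffold subunit on chromosome 12 (56162359 to 56189567, minus strand), had 75.1 and 75.7 CPM with HJ-4, against 86.8 and 95.3 CPM with DMSO. Its log2 fold change was -0.27 (SE 0.087, unadjusted p 0.026, adjusted p 0.26 in edgeR). SMARCC2 shares 7.83% of its exon bases with MYL6 on the other strand, and without the strand setting reads of the shared stretch cannot be told apart. Its paralog SMARCC1 barely differed, at 151 and 152 CPM with HJ-4, against 156 and 155 CPM with DMSO. The log2 ratio of SMARCC1 to SMARCC2 was accordingly 0.69 in both HJ-4 libraries, against 0.52 and 0.38 in DMSO libraries. The alternative ATPases SMARCA4 and SMARCA2, the motors of SWI/SNF, kept a ratio that overlapped between conditions, at 0.95 and 0.99 with HJ-4 and 1.18 and 0.92 with DMSO on the log2 scale.

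The accessory D subunits were dominated by SMARCD2, at 189 and 199 CPM with HJ-4 and 218 and 187 CPM with DMSO. SMARCD1 had 29.4 and 37.7 CPM with HJ-4, against 53.5 and 31.3 CPM with DMSO. DMSO replicate 1 alone was high, and the log2 fold change of SMARCD1 was -0.34 with all libraries but 0.10 without DMSO replicate 1. SMARCD3 lay slightly higher, at 53 and 52.6 CPM with HJ-4, against 45.7 and 46.3 CPM with DMSO (log2 fold change 0.20, unadjusted p 0.065, adjusted p 0.34 in edgeR). SMARCD3 shares exon bases with CHPF2 on the other strand, 26.9% of its own. SMARCB1, SMARCE1, ACTL6A, DPF2, SS18 and BRD9, which complete the core, BAF and ncBAF forms, had log2 fold changes between -0.17 and 0.26, and for none of them was the unadjusted p under 0.05. BRD7 and SMARCB1 share 41.8% and 17.7% of their exon bases with coding genes on the other strand (ADCY7 and DERL3).

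**Figure D3:**
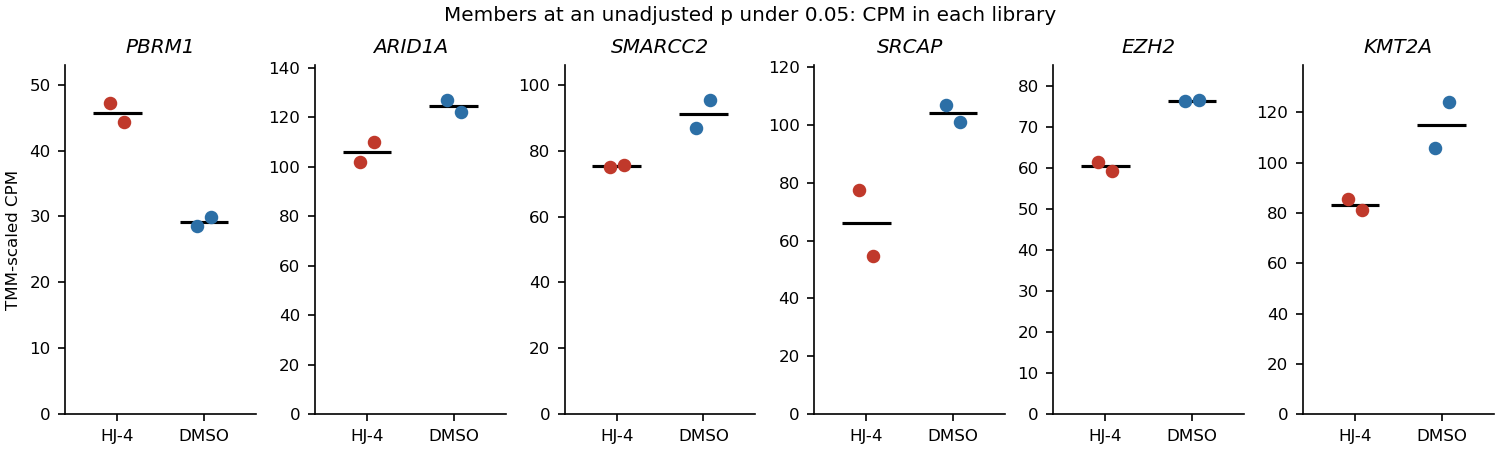
TMM-scaled CPM (y axis, starting at 0) of the 6 members at an unadjusted p under 0.05, with a point per library and a line at the mean of 2. PBRM1 is higher and the other 5 lower in both HJ-4 libraries than in both DMSO libraries.

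EZH2, the methyltransferase of PRC2, was lower with HJ-4. It lies on chromosome 7 (148807257 to 148884321, minus strand) and had 61.4 and 59.3 CPM in HJ-4 libraries, against 76.2 and 76.4 CPM in DMSO libraries. The groups did not overlap. The log2 fold change was -0.34 (SE 0.079, 95% interval -0.54 to -0.14, a ratio of 0.79), with an unadjusted p of 0.0078 and an adjusted p of 0.20 in edgeR. DESeq2 gave an adjusted p of 0.038, and edgeR with a replicate block gave 0.36. The log2 fold change stayed between -0.38 and -0.33 when any library was left out.

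The other core subunits of PRC2 differed less. SUZ12, the scaffold of the complex, had 76.1 and 69.4 CPM with HJ-4, against 73.7 and 76.2 CPM with DMSO, and its groups overlapped. EED, which binds the methyl mark and holds EZH2 active, had 16.3 and 16.8 CPM with HJ-4, against 18 and 17.5 CPM with DMSO (log2 fold change -0.10, SE 0.10, unadjusted p 0.37). EZH1, the alternative methyltransferase of PRC2, averaged 67.8 ± 2.75 CPM with HJ-4 and 62.7 ± 2.59 CPM with DMSO (SD, n = 2 each; log2 fold change 0.11, edgeR adjusted p 0.55). Within a library, the log2 TPM ratio of EZH2 to EZH1 was 0.70 and 0.57 with HJ-4, against 1.13 and 1.05 with DMSO, a difference of -0.45. Which of the pair is more abundant depended on the length used: with the union of all exons the ratio was -0.73 and -0.86 with HJ-4 and -0.30 and -0.38 with DMSO, though the difference was again -0.45.

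Promoter sequence is shown for EZH2 and PBRM1, whose fold changes varied least among the 6 members at an unadjusted p under 0.05 when a library was left out, and for SUZ12, the partner of EZH2 whose groups overlapped. Each window is the 250 bases before the RefSeq start (GRCh38.p14), read on the strand of the gene, at chr7:148884292-148884541 for EZH2 (minus strand), chr17:31936757-31937006 for SUZ12 (plus strand) and chr3:52685914-52686163 for PBRM1 (minus strand). Capitals mark CCAAT, the box bound by NF-Y, on either strand (ATTGG when read in reverse), and in SUZ12 also an E2F motif (TTTCCCGC) and the cell cycle homology region (CHR) motif TTTGAA in reverse.
EZH2: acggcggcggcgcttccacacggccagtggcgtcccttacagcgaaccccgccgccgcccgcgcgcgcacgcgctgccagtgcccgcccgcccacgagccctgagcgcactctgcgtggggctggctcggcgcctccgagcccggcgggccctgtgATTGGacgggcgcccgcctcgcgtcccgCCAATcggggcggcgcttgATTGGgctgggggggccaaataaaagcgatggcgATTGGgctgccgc
SUZ12: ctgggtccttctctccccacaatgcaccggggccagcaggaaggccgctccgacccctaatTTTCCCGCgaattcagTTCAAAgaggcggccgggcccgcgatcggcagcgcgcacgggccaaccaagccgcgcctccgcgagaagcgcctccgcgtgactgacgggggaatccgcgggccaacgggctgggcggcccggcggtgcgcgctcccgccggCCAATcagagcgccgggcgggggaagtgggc
PBRM1: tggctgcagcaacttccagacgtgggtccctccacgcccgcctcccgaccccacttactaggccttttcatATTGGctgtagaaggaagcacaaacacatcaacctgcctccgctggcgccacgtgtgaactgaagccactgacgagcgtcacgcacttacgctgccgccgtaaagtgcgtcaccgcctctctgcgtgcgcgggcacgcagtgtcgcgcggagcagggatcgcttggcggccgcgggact

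EZH2 held 4 CCAAT boxes between 250 bases before and 50 after the start, all of them in the printed bases. In that longer window 1.26% of 15843 coding promoters held at least as many, and EZH2 was the only member to do so. This count of boxes was not planned and took the number in EZH2 as its limit. Its E2F motif, TTTGGCGC, lay at positions 2 to 9 after the start and is outside the printed bases. In SUZ12 the E2F motif lay at -189 to -182, the CHR motif at -173 to -168 and the CCAAT box at -31 to -27. PBRM1 held a CCAAT box at -179 to -175 and none of the other motifs searched. ARID1A, SRCAP and KMT2A, which were also lower with HJ-4, held none of the motifs searched.

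Of the 47 members, 39 had a promoter of 250 bases before and 50 after the start in the RefSeq table. Any of the E2F motifs TTTCGCGC, TTTCCCGC, TTTGGCGC and TTTGCCGC, searched on both strands, occurred in 3 of 39 (7.69%; BRD7, EZH2 and SUZ12), against 4.44% of coding promoters. The CHR motif TTTGAA occurred in 2 (5.13%, against 12.1%), the core GCGCATGC of the NRF1 site in 0 (against 4.26%), and CCAAT in 16 (41%, against 36.4%). These matches are letters in a window and were not tested for binding.

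Both KMT2 genes had negative log2 fold changes, with separate groups for KMT2A alone. KMT2A, the MLL methyltransferase that keeps developmental genes active, lies on chromosome 11 (118436456 to 118526832, plus strand). It had 85.5 and 81 CPM in HJ-4 libraries, against 106 and 124 CPM in DMSO libraries, and the groups did not overlap. The log2 fold change was -0.46 (SE 0.11, 95% interval -0.74 to -0.19), with an unadjusted p of 0.0075 and an adjusted p of 0.20 in edgeR. It was -0.35 without DMSO replicate 2 and -0.57 without DMSO replicate 1. DESeq2 gave an adjusted p of 0.022, within a range of 0.022 to 0.66 over the alternatives. KMT2D, the enhancer methyltransferase, had 157 and 165 CPM with HJ-4, against 189 and 164 CPM with DMSO, and its groups overlapped. KMT2A and KMT2D each overlap a coding gene without a symbol on the same strand, so reads of a shared stretch are of uncertain origin.

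SRCAP and INO80, the ATPases that name their complexes, had log2 fold changes of opposite sign. SRCAP, the motor that deposits H2A.Z, lies on chromosome 16 (30698209 to 30741409, plus strand). It had 77.6 and 54.8 CPM in HJ-4 libraries, against 107 and 101 CPM in DMSO libraries. Both HJ-4 libraries lay below, but they were far apart from each other. The log2 fold change was -0.66 (SE 0.18, 95% interval -1.11 to -0.20, adjusted p 0.23 in edgeR and 0.031 in DESeq2, range 0.031 to 0.56 over the alternatives). It was -0.94 without HJ-4 replicate 1 and -0.44 without HJ-4 replicate 2, so the size of the difference rests on which HJ-4 library is used. SRCAP overlaps TMEM265 and a coding gene without a symbol on the same strand, and reads of a shared stretch are of uncertain origin.

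INO80 had 27.9 and 26.3 CPM with HJ-4, against 18 and 24.6 CPM with DMSO, a log2 fold change of 0.35 (SE 0.17, unadjusted p 0.096, adjusted p 0.39 in edgeR). DMSO replicate 1 was the low library, and the log2 fold change of INO80 was 0.14 without it and 0.59 without DMSO replicate 2. In TPM the log2 ratio of INO80 to SRCAP was -0.59 and -0.18 with HJ-4, against -1.70 and -1.16 with DMSO. The difference of 1.04 was the largest among the 14 pairs of genes compared in this way. EP400, the ATPase of the TIP60 complex, and the shared ATPases RUVBL1 and RUVBL2 had log2 fold changes of -0.063, -0.033 and -0.14, and none of the 3 had an unadjusted p under 0.05. RUVBL2 had 156 and 161 CPM with HJ-4, against 183 and 165 CPM with DMSO. Its groups did not overlap, and its log2 fold change was -0.059 without DMSO replicate 1 and -0.21 without DMSO replicate 2. RUVBL1 shares 13.8% of its exon bases with EEFSEC and SEC61A1 on the other strand.

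In each ISWI gene the gap between DMSO libraries exceeded the log2 fold change between conditions. SMARCA5, the main ISWI motor, had 180 and 174 CPM with HJ-4, against 155 and 195 CPM with DMSO. SMARCA1, the related motor known from neural tissue, had 69 and 63.1 CPM with HJ-4, against 42 and 63.8 CPM with DMSO. BAZ1A, the ACF subunit, had 40.7 and 36.5 CPM with HJ-4, against 27.5 and 45.1 CPM with DMSO. BPTF, the largest subunit of NURF, had 83.6 and 83.6 CPM with HJ-4, against 66.8 and 87.3 CPM with DMSO. In each of these genes DMSO replicate 1 was the lowest library, as it was for 5 of 5 ISWI members and 26.7% of all genes. The groups of all 5 overlapped, as did those of 6904 of the 14044 genes tested.

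BAZ1B, the subunit deleted in Williams syndrome, had 104 and 103 CPM with HJ-4, against 87.8 and 121 CPM with DMSO. Its log2 fold change was -0.0081, but 0.24 without DMSO replicate 2 and -0.22 without DMSO replicate 1. The log2 TPM ratio of SMARCA5 to SMARCA1 did not overlap between conditions: it was 0.44 and 0.52 with HJ-4, against 0.94 and 0.67 with DMSO. Several of the other pairs compared did not overlap either. The log2 fold change of SMARCA1 was 0.32 with all libraries, 0.051 without DMSO replicate 1 and 0.65 without DMSO replicate 2. SMARCA5 was the more abundant of these motors in every library.

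Among CHD and NuRD genes, 6 log2 fold changes were positive and 7 negative. An unadjusted p under 0.05 in edgeR was reached by 0 of them, against 15.9% of all genes. CHD4 had 372 and 370 CPM with HJ-4, against 413 and 428 CPM with DMSO (log2 fold change -0.18, SE 0.072, unadjusted p 0.054, adjusted p 0.32 in edgeR). Its groups did not overlap. CHD3, the alternative helicase of NuRD, had 105 and 107 CPM with HJ-4, against 105 and 96 CPM with DMSO, and the log2 TPM ratio of CHD4 to CHD3 was 2.01 and 1.97 with HJ-4, against 2.16 and 2.34 with DMSO.

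HDAC1 had 260 and 257 CPM with HJ-4, against 243 and 261 CPM with DMSO. HDAC2, its partner deacetylase, had 113 and 124 CPM with HJ-4, against 104 and 108 CPM with DMSO (log2 fold change 0.16, unadjusted p 0.12, adjusted p 0.42 in edgeR). MBD3, the methyl-CpG-binding-domain subunit, and MTA1 and MTA2, the scaffold subunits, had log2 fold changes of 0.039, -0.032 and -0.028, all with overlapping groups.

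Among the CHD helicases outside NuRD, CHD9 and CHD1 varied most between libraries of a condition, and CHD7 least. CHD9 had 20.3 and 27.8 CPM with HJ-4, against 20.6 and 38.5 CPM with DMSO, and the DMSO libraries differed by 0.91 on the log2 scale. CHD1, which acts with elongating polymerase, had 93.9 and 69.1 CPM with HJ-4, against 55.8 and 84.9 CPM with DMSO. CHD2, its close relative, had 126 and 121 CPM with HJ-4, against 88.1 and 121 CPM with DMSO. For CHD1 and CHD2 the low library was DMSO replicate 1, and without it their log2 fold changes were -0.059 and 0.027, against 0.21 and 0.24 with all libraries. CHD6, CHD7 and CHD8, large helicases of which CHD7 is the CHARGE syndrome gene and CHD8 an autism gene, had log2 fold changes of -0.031, -0.023 and -0.027. Their DMSO libraries differed by 0.48, 0.075 and 0.35 on the log2 scale.

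MTA2 and MTA1 had near-equal TPM by canonical length, with a mean log2 ratio of -0.01 with HJ-4 and -0.0074 with DMSO, but with the union of all exons MTA2 was the higher, at 0.80 in both conditions. The log2 ratio of HDAC2 to HDAC1 was -3.40 and -3.26 with HJ-4, against -3.42 and -3.48 with DMSO, and that of RUVBL1 to RUVBL2 was -1.36 and -1.47 with HJ-4, against -1.54 and -1.49 with DMSO. Both ratios were slightly higher in both HJ-4 libraries. The log2 ratio of KMT2A to KMT2D was -0.56 and -0.72 with HJ-4, against -0.52 and -0.095 with DMSO, while those of SMARCD1 to SMARCD2 and of BAZ1A to BAZ1B overlapped between conditions.

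**Figure D4:**
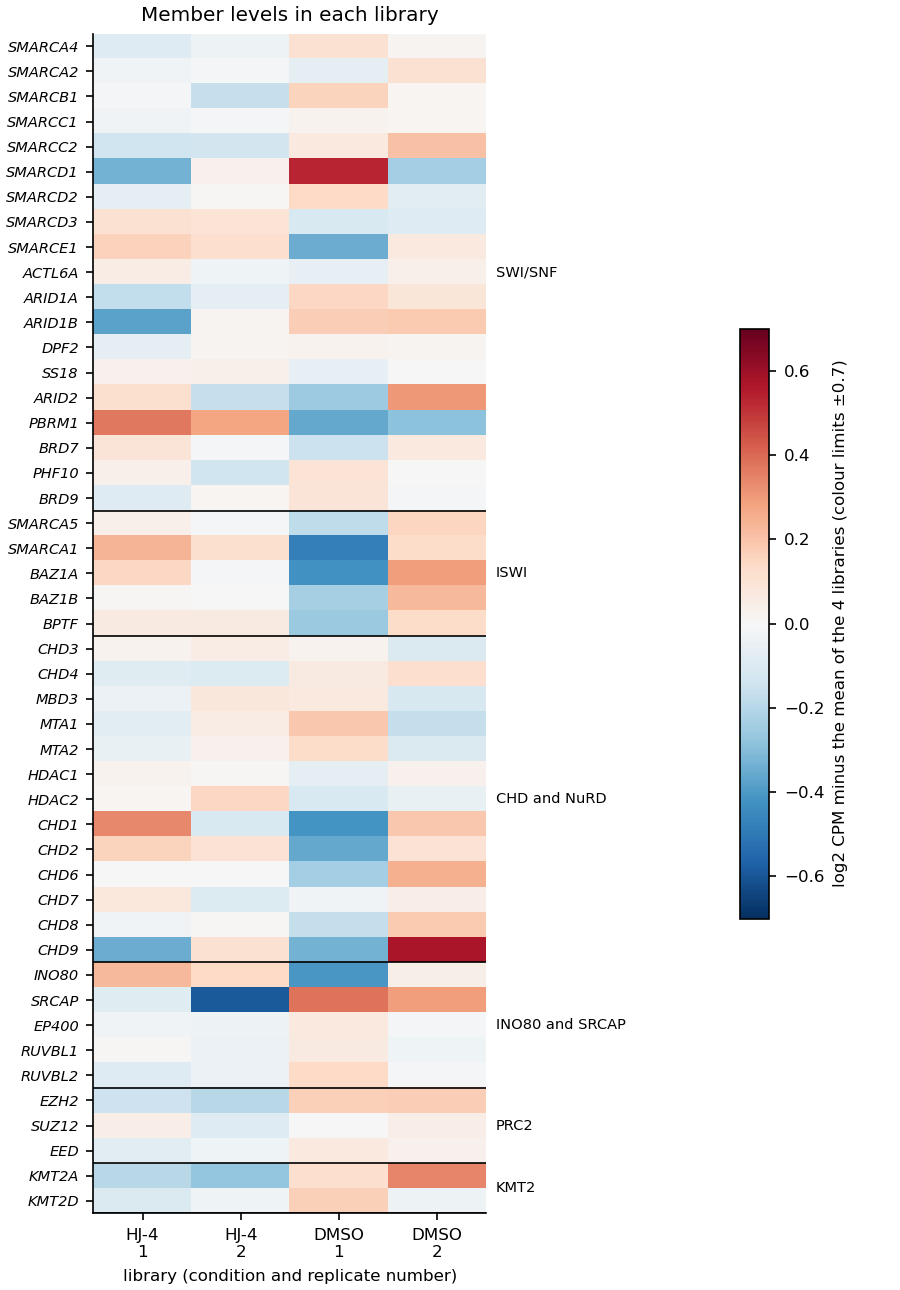
Log2 CPM of the 47 members in each library (columns, HJ-4 left of DMSO) minus the mean of the 4 libraries, with red above and blue below that mean. PBRM1, EZH2, KMT2A and SRCAP are among the 20 members whose groups do not overlap. Of all genes tested, 25.2% lay above and 25.6% below in both HJ-4 libraries. The ISWI genes and several CHD genes are lowest in DMSO replicate 1.

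DMSO replicate 1 was the lowest of the 4 libraries for 20 members (42.6%), against 26.7% of all genes tested, and the highest for 17. Libraries of a condition lay over 0.3 apart on the log2 scale for 5 members with HJ-4 and 15 members with DMSO. In 13 of those 15 DMSO replicate 2 was the higher, and 16.8% of all genes showed such a gap. The median gap was 0.077 for members and 0.12 for all genes between HJ-4 libraries, and 0.15 for members and 0.16 for all genes between DMSO libraries. Here too the genes at large include lower counts than the members.

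The gap between DMSO libraries ran with the GC content of the transcript. Spearman's rho between GC content and the log2 ratio of DMSO replicate 2 to 1 was -0.75 over 47 members. It was -0.41 over the 11133 genes of at least 5 CPM with a coding canonical transcript. For HJ-4 replicate 2 over 1 it was 0.40 over members and 0.41 over genes, and for HJ-4 over DMSO it was -0.41 and -0.11. These are correlations across genes that share their libraries, so they are given without a test. Members and those 11133 genes had a median GC content of 49.3% and 48.8%, but the members' transcripts were longer, with a median of 5729 against 3434 bases.

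With the GC trend of each library removed, an alternative added after the data were seen, the log2 fold changes of PBRM1, EZH2, KMT2A and SRCAP were 0.61, -0.36, -0.47 and -0.62. edgeR then called 0 members and 30 of all genes, with 8 members at an unadjusted p under 0.05. The part of GC content in the gap between DMSO libraries was not tested.

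**Figure D5:**
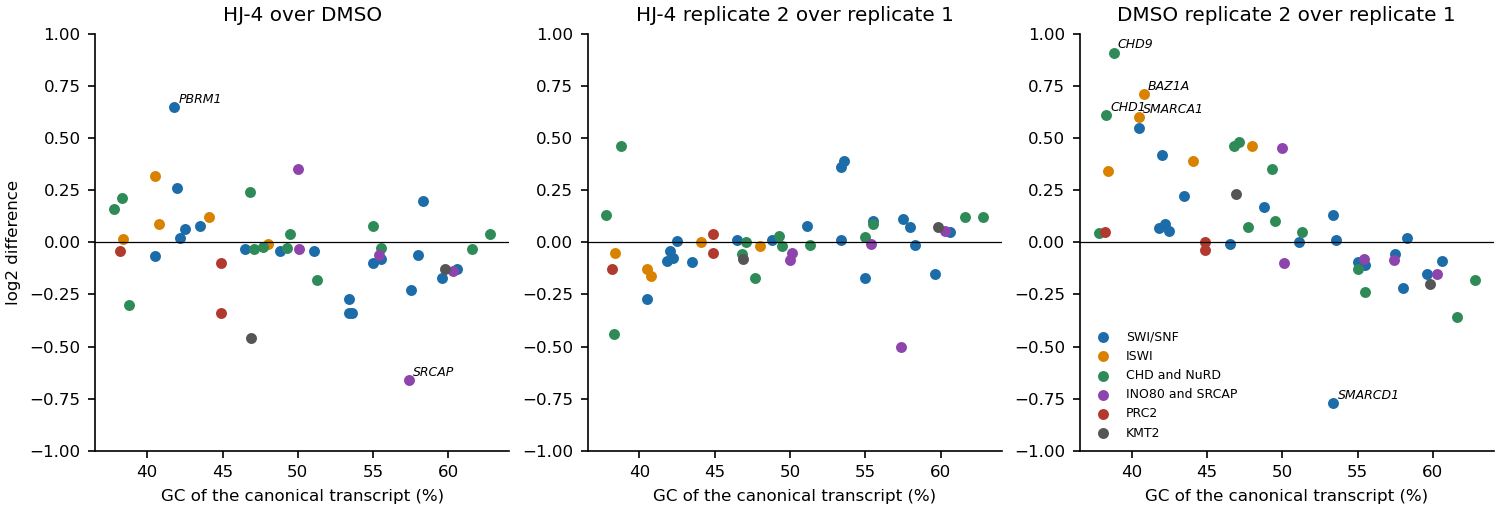
Log2 differences of the 47 members (y axis) against the GC content of the canonical transcript in percent (x axis), for HJ-4 over DMSO, for the HJ-4 libraries and for the DMSO libraries, coloured by complex. CHD9, BAZ1A, CHD1 and SMARCA1 at low GC lie highest in the DMSO panel, where rho is -0.75, and SMARCD1 lies lowest.

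Further subunits of the same complexes were read as a listed set of 95 genes, of which 93 were tested. edgeR called 0 of them. Their median log2 fold change was -0.054, with 38 positive and 55 negative, and 12 of them (12.9%) had an unadjusted p under 0.05, 2 higher and 10 lower, near the 15.9% of all genes.

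PRC1, the Polycomb complex that ubiquitylates histone H2A, held 5 of those 12 among its 22 genes, 1 higher and 4 lower. That is 22.7% of its genes, against 15.9% of all genes, and the difference between the shares was not tested. Of the 22 log2 fold changes, 10 were positive and 12 negative, with a median of -0.061. CBX2, the subunit that binds the PRC2 mark, averaged 46.7 ± 0.658 CPM with HJ-4 and 62.8 ± 2.12 CPM with DMSO (SD, n = 2 each; log2 fold change -0.43, edgeR adjusted p 0.17). KDM2B, the CpG-island-binding subunit of the variant complex, averaged 24.5 ± 1.72 CPM with HJ-4 and 35.6 ± 5.92 CPM with DMSO (log2 fold change -0.54, edgeR adjusted p 0.23). BCORL1, a corepressor of that complex, had a log2 fold change of -0.37 (edgeR adjusted p 0.22). The groups of these 3 genes did not overlap. Over the 22 PRC1 genes, both HJ-4 libraries were above for 3 and below for 10, while over all genes 25.2% were above and 25.6% below. PCGF1, named after its values were seen, was the higher of the 5 genes, with a log2 fold change of 0.31 (edgeR adjusted p 0.26).

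Of 15 other KMT2 and SET1 complex genes, 3 (20%, near the 15.9% of all genes) had an unadjusted p under 0.05, all of them lower, and 12 had a negative log2 fold change. HCFC1, the host cell factor that tethers SET1 complexes, averaged 60.7 ± 1.86 CPM with HJ-4 and 81 ± 7.07 CPM with DMSO (log2 fold change -0.42, edgeR adjusted p 0.20). SETD1A, a SET1 methyltransferase, and NCOA6, a subunit of KMT2C and KMT2D complexes, had log2 fold changes of -0.34 and -0.23.

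Other SWI/SNF genes gave a median log2 fold change of -0.17 over 9 tested. DPF1, the neural counterpart of DPF2, averaged 6.42 ± 0.492 CPM with HJ-4 and 9.88 ± 0.486 CPM with DMSO (log2 fold change -0.62, edgeR adjusted p 0.19). ACTB, the actin shared with the cytoskeleton, averaged 1590 ± 2.41 CPM with HJ-4 and 1308 ± 133 CPM with DMSO (log2 fold change 0.28, edgeR adjusted p 0.28). BCL7B, a small BAF subunit, had a log2 fold change of -0.22.

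Among 6 other ISWI genes, CHRAC1, a histone-fold subunit of CHRAC, averaged 25.7 ± 6.84 CPM with HJ-4 and 40.3 ± 8.65 CPM with DMSO (log2 fold change -0.65, edgeR adjusted p 0.30), and CECR2 and POLE3 had log2 fold changes of -0.41 and -0.21. Among 8 other NuRD genes, GATAD2B, GATAD2A and CDK2AP1 had -0.17, -0.40 and -0.16, and 0 of the 8 had an unadjusted p under 0.05. The 7 other PRC2 genes tested gave a median of 0.034, with 0 at an unadjusted p under 0.05. JARID2, a cofactor that guides PRC2 to chromatin, had a log2 fold change of 0.14, and EPOP had -0.045.

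Of 26 other INO80, SRCAP and TIP60 genes, 13 log2 fold changes were positive and 13 negative. TRRAP, the scaffold of histone acetyltransferase complexes, averaged 110 ± 2.47 CPM with HJ-4 and 134 ± 2.53 CPM with DMSO (log2 fold change -0.28, edgeR adjusted p 0.24), and NFRKB and ACTR6 had -0.23 and -0.21. INO80B, singled out after its values were seen, had 5.93 and 13.7 CPM with HJ-4, against 1.81 and 6.74 CPM with DMSO. Its groups overlapped, and its log2 fold change of 1.20 had an unadjusted p of 0.14 in edgeR.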

How the data were processed

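RNA of HCT116 cells was sequenced in 2 HJ-4 and 2 DMSO libraries. The deposited values are unnormalized counts of reads for 20263 Ensembl gene IDs. The study's methods and the submitters' processing notes name different aligners and counters (STAR and featureCounts in the methods, HISAT2 and RSEM in the notes, beside FastQC, Trimmomatic and bedtools). Which of these made the table is not settled by them, and its annotation and use of strand are not given in the sources used here. Reads of overlapping genes are therefore uncertain.

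Symbols, coordinates, transcript lengths and GC content came from GENCODE version 44 (GRCh38), which matched 20148 IDs and left 115. Columns were matched to samples by library names in the labels. In edgeR 4.0.16 (R 4.3.3), low counts were removed with filterByExpr, libraries were scaled by TMM, and condition, the only term, was tested by quasi-likelihood (glmQLFit, glmQLFTest) with Benjamini-Hochberg adjustment over 14044 genes. The study names limma; edgeR was used because the values are counts. The common biological coefficient of variation was 0.157. TPM used canonical transcript lengths. Libraries held 29769568 to 34359889 counts in total, and intervals are 95% intervals of the fit, which rest on the spread between libraries.

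The members, the lists and the tests were chosen with earlier results of these data known. By rule, values in each library are given for members at an unadjusted p under 0.05 and for the 5 with the widest gap between libraries of a condition. The same rule takes those of largest and smallest fold change and of highest TPM in each complex. Log2 TPM ratios are given for pairs of paralogs, and also for INO80 with SRCAP and PBRM1 with ARID2. Other members whose values in each library are printed, such as BPTF, EED, SMARCD3 and members of the pairs, were chosen after their values were seen. Of the other lists, up to 3 genes of smallest p are named. Replicate numbers are shared by the groups. No block was planned, since the study's methods name none, and same-numbered libraries did not deviate together. Alternatives were DESeq2 1.42.0 (size factors and Wald test), total counts, no filter, a minimum mean of 5 CPM, limma-voom (limma 3.58.1), a replicate block, union exon lengths and leaving out each library. A crossed block and removal of the GC trend were added after the data were seen.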

Additional observations from a re-analysis of the deposited data

How the results depend on the processing

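Over all genes, edgeR called 7 genes, 12 without a filter, 31 with a replicate block, 30 with the GC trend removed and 0 to 87 when a library was left out (0 without either of the HJ-4 libraries, 87 and 33 without the DMSO libraries 1 and 2). DESeq2's Wald test called 574. The replicate block moved no member past the adjusted threshold, and the deviations of same-numbered libraries had a correlation of -0.107 over 11181 genes. With the pairing crossed, 0 genes were called. DESeq2 called 4 members where edgeR, in every setting tried, called 0. The cause of these differences was not tested. Members at an unadjusted p under 0.05 numbered 3 to 15 when a library was left out, against 6, with 15 (8 higher and 7 lower) when DMSO replicate 2 was dropped and 3 when HJ-4 replicate 2 was. The median log2 fold change of the members was -0.061 with total counts and -0.052 to -0.017 when a library was left out.

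Of 273 values of the 21 named members under alternatives, 256 kept their direction. SMARCA5 stood at -0.013 with total counts and with the GC trend removed, and BAZ1B at 0.011 in limma-voom, 0.0098 with the replicate block and 0.0097 with the crossed block. When a library was left out, log2 fold changes ran between -0.17 and 0.049 for SMARCD2, -0.14 and 0.19 for SMARCA5, -0.012 and 0.091 for HDAC1, -0.67 and 0.10 for SMARCD1, -0.22 and 0.49 for BAZ1A, -0.059 and 0.55 for CHD1, -0.22 and 0.24 for BAZ1B, -0.68 and 0.23 for CHD9 and -0.12 and 0.0098 for SUZ12. Between replicate libraries, counts differed by 22.8 (HJ-4) and 37.9 (DMSO) times the counting variance (chi-square per degree of freedom). These values cover genes at large and were not computed for the members alone. The parts of depth and of spread between libraries in the precision were not tested.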
